A study of Mus musculus with 4 samples.

Results

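The genes of MHC class I and class Ib antigen presentation were compared between plasmacytoid dendritic cells (pDCs) of wild-type (WT) and Flt3 knockout (Flt3 KO) mice. They comprised every measured gene whose symbol starts with H2-Q, H2-T, H2-M, H2-K or H2-D and a digit, 19 in all, and 14 named partners of the pathway, which gave 33 of the 19938 genes measured. A gene counted as measured where at least 1 probe set of the array was annotated to its symbol alone. The classical heavy chain genes H2-K1 and H2-D1 and the Qa genes H2-Q6, H2-Q7 and H2-T23 had no such probe set, and those named by shared probe sets are described further down. All 33 genes were tested, since no filter on low values was applied.

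The study sorted mature pDCs from spleens of mice at steady state, after digestion with Collagenase B and DNAse 1. It held 2 biological replicates of WT and 2 of Flt3 KO mice, each measured on its own whole-transcript GeneChip array. The labels give the genotype only as WT or Flt3 KO. They do not name the allele, the strain, the age or sex of the mice, or how many mice each replicate came from, so p-values measure the spread between these samples. The MHC haplotype is not given either, and where probes of polymorphic class I and class II genes match haplotypes unequally, a difference in intensity need not be one in transcript level.

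MHC class I molecules are heavy chains that pair with beta-2 microglobulin and carry short peptides from the cytosol to the cell surface, where CD8 T cells and natural killer cells read them. Proteasomes cut the peptides, the TAP transporter moves them into the endoplasmic reticulum, and a loading complex fits them to the heavy chain. Class Ib molecules of the Q, T and M regions share this fold but vary little between individuals and often serve specialised tasks, and NLRC5 is the transactivator that drives class I genes and several of their partners. Plasmacytoid dendritic cells are known for a large output of type I interferon, a cytokine that raises class I genes in most cell types.

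Of 12 defining pDC markers 10 were measured, and their mean log2 intensities lay between 9.79 and 12.89. Levels of different probe sets cannot be ranked against each other, and some markers of other cells also read high. Among them were Cd209a (10.88 to 11.28 over the 4 arrays), Sirpa (11.05 to 11.20) and Clec9a (10.69 to 10.86) of conventional dendritic cells. Cd68 (10.08 to 10.22) of macrophages was another. The lists that hold these markers were mixed. Mean levels ran from 4.52 to 10.76 for conventional dendritic cells type 1 and from 3.24 to 11.13 for type 2. For monocytes and macrophages they ran from 5.665 to 10.15. Flt3, the targeted gene, read 10.71 and 10.77 in WT against 8.46 and 8.61 in Flt3 KO cells on the log2 intensity scale. It fell by 2.21 (SE 0.066, limma adjusted p = 7.43e-05). Median intensities of the arrays lay between 55.1 and 57.2 on the deposited linear scale. All 10 pDC markers had a negative difference and 5 of them fell, Tlr7, Ccr9, Spib, Irf8 and Ly6d, with a median of −0.24. Their summed intensity was 38904 and 38542 in WT, then 33655 and 33700 in Flt3 KO. Among markers of other cell types, 9 of 11 measured ones of monocytes and macrophages had a positive difference, and 2 of them, Cd14 and Lyz2, passed the test. In 5 of the 11 the genotypes overlapped. In 5, both Flt3 KO values lay above both WT values, which held for 21.9% of all genes. The median of the 11 relative to the WT mean was 0.13 in Flt3 KO replicate 1 and 0.54 in Flt3 KO replicate 2. None of the 11 was listed at 0. Their summed intensity was 4328 and 3923 in WT, then 4550 in Flt3 KO replicate 1 and 6029 in Flt3 KO replicate 2. Of 6 plasma cell markers Jchain and Slamf7 rose and Xbp1 fell, and no marker of B, T, natural killer, conventional dendritic cells or neutrophils passed. The part of these shifts in the results was not tested.

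The core promoters of 5 members are shown because they set a heavy chain gene that fell (H2-Q4) beside neighbours of the same region that did not pass the test (H2-Q2 and H2-Q10), and beside H2-M3 and the light chain gene B2m. Each line holds the 250 bases before the annotated start, 5′ to 3′, from RefSeq on GRCm38.p6. Capitals mark every match, on either strand, to 4 patterns: GGGANTNCC, the core of an enhancer A-type kappa B site; GAANNGAAA, a double interferon regulatory factor site; TGACG, the core of a cAMP response element; and CCAAT, the box bound by NF-Y.
H2-Q4, chr17:35379367-35379616, + strand: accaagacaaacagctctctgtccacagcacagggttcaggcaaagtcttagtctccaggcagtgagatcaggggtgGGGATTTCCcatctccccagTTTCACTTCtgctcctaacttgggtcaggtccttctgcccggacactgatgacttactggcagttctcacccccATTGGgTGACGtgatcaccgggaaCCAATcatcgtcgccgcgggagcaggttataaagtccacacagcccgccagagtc
H2-Q2, chr17:35342057-35342306, + strand: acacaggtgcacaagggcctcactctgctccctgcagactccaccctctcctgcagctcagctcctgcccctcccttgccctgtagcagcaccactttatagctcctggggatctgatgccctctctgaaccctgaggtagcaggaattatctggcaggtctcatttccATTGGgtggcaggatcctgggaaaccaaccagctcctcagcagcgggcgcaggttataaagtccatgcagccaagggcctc
H2-Q10, chr17:35469839-35470088, + strand: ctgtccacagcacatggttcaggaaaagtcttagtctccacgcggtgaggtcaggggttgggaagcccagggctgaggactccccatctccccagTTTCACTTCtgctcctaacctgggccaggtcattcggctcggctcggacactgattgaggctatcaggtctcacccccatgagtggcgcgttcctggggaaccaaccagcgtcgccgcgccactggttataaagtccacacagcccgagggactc
H2-M3, chr17:37269984-37270233, + strand: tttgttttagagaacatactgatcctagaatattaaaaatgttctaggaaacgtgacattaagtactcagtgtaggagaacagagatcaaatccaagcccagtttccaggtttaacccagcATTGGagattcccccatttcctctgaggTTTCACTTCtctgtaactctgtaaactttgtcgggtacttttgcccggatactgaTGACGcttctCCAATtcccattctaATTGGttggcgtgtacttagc
B2m, chr2:122147437-122147686, + strand: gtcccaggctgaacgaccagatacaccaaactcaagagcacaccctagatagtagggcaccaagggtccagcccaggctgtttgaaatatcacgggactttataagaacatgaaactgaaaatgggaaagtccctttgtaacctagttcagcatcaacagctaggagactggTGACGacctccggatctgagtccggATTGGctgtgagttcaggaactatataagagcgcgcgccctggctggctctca
The H2-Q4 window held all 4 patterns, the kappa B match beginning at base −173 from the start and the interferon regulatory factor match at base −153. The H2-Q2 window held only a CCAAT box, at −81, and that of H2-Q10 only the interferon regulatory factor match, at −155. H2-M3 carried the interferon regulatory factor match at −101, a TGACG match at −46 and 3 CCAAT matches. Of the 4 exact patterns, B2m matched only TGACG, at −78, and CCAAT, at −53. Its window also holds gaaactgaaa, a repeat of GAAA at a spacing that the pattern GAANNGAAA does not match. Other spellings of these sites were not searched, so a window without a match may still hold such a site. Promoters were found for 25 of the 33 genes, but not for H2-Q5, H2-T10 and Nlrc5, which also fell. Psmb9, which fell too, matched only TGACG, at −144, and CCAAT, at −8. Of all 32851 promoters of this length, 3.36% held the kappa B pattern, 6.31% the interferon regulatory factor pattern, 17.8% TGACG and 33.8% CCAAT. Among the 25 members the counts were 2, 4, 11 and 17. H2-Q4 was not alone in holding all 4: the window of H2-M2 did so too, with kappa B matches at −179 and −165, and H2-M2 had a difference of 0.15 that did not pass. These matches describe letters only, and their part in any difference was not tested.

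Class I presentation genes that differed between the genotypes were lower without Flt3. Of the 33 genes 5 fell, none rose and 28 did not pass a limma adjusted p of 0.05. Those that fell were the class Ib genes H2-Q5, H2-Q4 and H2-T10, the immunoproteasome subunit gene Psmb9 and the transactivator gene Nlrc5. Over all genes 2.39% passed, 1.31% in the lower and 1.08% in the higher direction. At an unadjusted p under 0.05 in limma, 12 members were lower and 1 was higher, where 17.1% of all genes had such a p in either direction. The median difference, Flt3 KO minus WT, was −0.084 on the log2 scale over the 33 genes and −0.0010 over all genes.

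Counts are given by level as a description, and the difference between brighter and dimmer members was not tested. Of the 22 members above the median level of 5.89, 5 fell, against 2.42% of all genes above that level, and 20 had a negative difference, with a median of −0.15. The 11 dimmer members were divided, 6 negative and 5 positive, with a median of −0.0025. In 15 of the 22 brighter members both Flt3 KO values lay below both WT values, which held for 37.0% of those genes. Brighter genes leaned down in general: the median was −0.037 over the 9969 genes above 5.89, of which 60.5% had a negative difference, and 0.031 over the rest, of which 40.2% did. Whether this lean contributes to the members' values was not tested. Relative to the WT mean, the median of the 33 genes was −0.12 in Flt3 KO replicate 1 and −0.084 in Flt3 KO replicate 2. In these arrays 25 and 24 of the 33 genes lay below their WT mean. Of all 19938 genes 10141 and 10261 did. The pDC markers, with a median of −0.24, moved the same way, and their part in the members' values was not tested. In bulk samples, fewer cells of a type and less RNA per cell cannot be told apart.

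**Figure D1:**
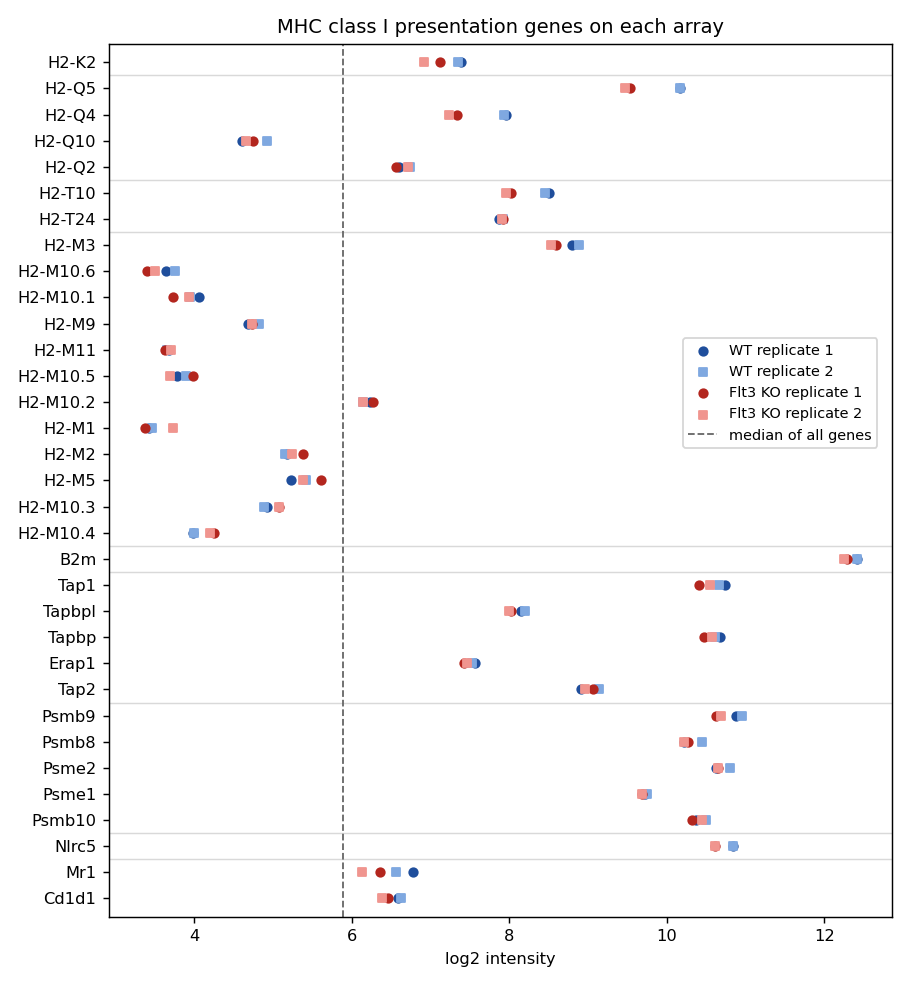
Log2 intensity of the 33 class I presentation genes (rows, grouped by role and separated by grey lines) on each of the 4 arrays, with a dashed line at 5.89, the median of all genes. The Flt3 KO points of H2-Q5, H2-Q4 and H2-T10 lie well to the left of the WT points, while most H2-M genes lie below the dashed line in both genotypes.

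The Q region lies next to the classical H2-D genes and encodes class Ib molecules of the Qa group. H2-Q4 had log2 intensities of 7.96 and 7.93 in WT against 7.33 and 7.24 in Flt3 KO. It fell by 0.66 (SE 0.072, limma adjusted p = 0.0085), a 1.58-fold difference. H2-Q5 stood at 10.16 and 10.17 in WT against 9.53 and 9.47 in Flt3 KO. It fell by 0.67 (SE 0.052, limma adjusted p = 0.0037), or 1.59-fold. In both genes the genotypes did not overlap, and the gap between them was far wider than that between replicates. H2-Q5 is annotated as a transcribed pseudogene in RefSeq, and close relatives of the region can share probe signal, so its value is uncertain as a reading of that gene alone.

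The other measured Q genes had differences near 0. H2-Q2 gave 6.60 and 6.75 in WT against 6.56 and 6.71 in Flt3 KO, a difference of −0.034 (SE 0.094, limma adjusted p = 0.90). Its genotypes overlapped. H2-Q10, which encodes a soluble class I molecule made chiefly by the liver, was dim at 4.61 and 4.93 in WT against 4.75 and 4.66 in Flt3 KO, with a difference of −0.063 (SE 0.13). The signs of these small differences turned when single arrays were left out. H2-K2, a transcribed pseudogene beside H2-K1, had 7.39 and 7.35 in WT against 7.12 and 6.92 in Flt3 KO, a difference of −0.35 (SE 0.088, limma adjusted p = 0.10) without overlap.

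The T region holds further class Ib genes, among them the T10 and T22 genes known for ligands of gamma delta T cells. H2-T10 had log2 intensities of 8.51 and 8.45 in WT against 8.02 and 7.96 in Flt3 KO. It fell by 0.49 (SE 0.065, limma adjusted p = 0.015), a 1.40-fold difference, and the genotypes lay apart by more than the replicates did. RefSeq lists H2-T10 as a transcribed pseudogene, and its call was lost without limma's intensity trend. H2-T24, a neighbour of the same region, stood at 7.87 and 7.92 in WT against 7.92 and 7.91 in Flt3 KO, with a difference of 0.022 (SE 0.066) that turned to −0.016 after centring of the arrays.

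The M region was represented by 12 genes, and none passed the test; 3 had an unadjusted p under 0.05 in limma. H2-M3, whose product presents N-formylated peptides of bacteria and mitochondria, was the brightest. It had 8.80 and 8.89 in WT against 8.59 and 8.53 in Flt3 KO. Both Flt3 KO values lay below WT, with a difference of −0.28 (SE 0.064, limma adjusted p = 0.083). The other 11 M genes had mean log2 levels between 3.50 and 6.20. Their differences ran from −0.24 to 0.23, with 5 negative and 6 positive and a median of 0.018. The extremes were H2-M10.6 (−0.24, SE 0.097) and H2-M10.4 (0.23, SE 0.092), both with limma adjusted p = 0.26. The H2-M1, H2-M9, H2-M10 and H2-M11 genes are known for expression in sensory neurons of the vomeronasal organ, and all of them here but H2-M10.2 lay below 5.89.

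**Figure D2:**
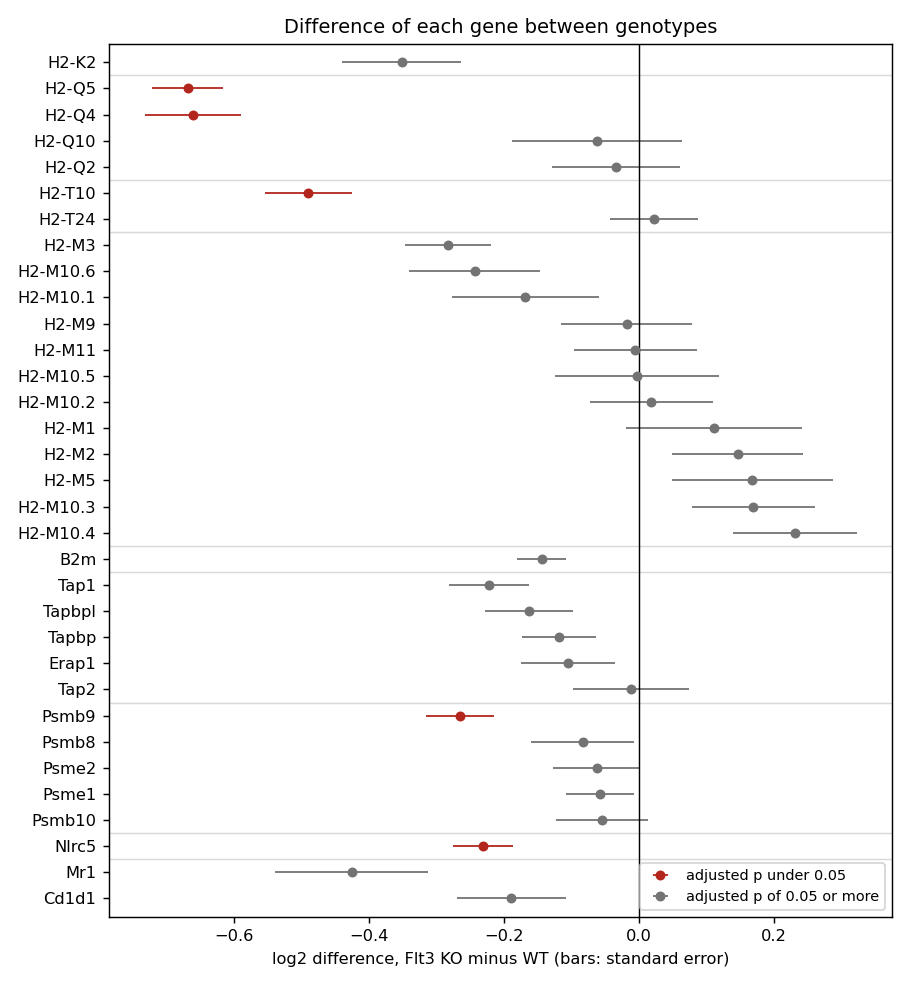
Log2 difference, Flt3 KO minus WT, of each of the 33 genes with limma's standard error as the bar, grouped by role; red marks an adjusted p under 0.05. The 5 red points all lie left of 0, from −0.67 for H2-Q5 to −0.23 for Nlrc5.

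B2m, the light chain shared by all class I molecules, was the brightest member. Its log2 intensity was 12.41 in both WT replicates and 12.28 and 12.25 in Flt3 KO. The replicates lay closer together than the genotypes, but the difference of −0.14 (SE 0.036, a 1.11-fold gap) did not pass over all genes (limma adjusted p = 0.11). It passed once each array was centred at its median, with −0.18 and an adjusted p of 0.046. H2-M3 did so as well, with −0.32 and an adjusted p of 0.043. Neither gene passed in any other alternative. Under quantile normalization the limma adjusted p was 0.22 for B2m and 0.11 for H2-M3. Centring also moved the median difference of all genes to −0.039.

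Genes of peptide transport, trimming and loading had small negative differences, and 0 of 5 passed. In limma 2 of them, Tap1 and Tapbpl, had an unadjusted p under 0.05. Tap1, a subunit of the peptide transporter, had 10.74 and 10.66 in WT against 10.41 and 10.54 in Flt3 KO, a difference of −0.22 (SE 0.060, limma adjusted p = 0.12). The genotypes did not overlap, yet the Flt3 KO replicates differed by more than the nearest values of the genotypes. Tap2, its partner subunit, overlapped, with 8.91 and 9.14 in WT against 9.07 and 8.96 in Flt3 KO and a difference of −0.012 (SE 0.086). The peptide editor gene Tapbpl had a difference of −0.16 (SE 0.065), the tapasin gene Tapbp −0.12 (SE 0.055) and Erap1, which trims peptides in the endoplasmic reticulum, −0.11 (SE 0.069). The adjusted p of these 3 genes was 0.26, 0.33 and 0.50 in limma.

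The immunoproteasome is the form of the proteasome whose catalytic subunits favour peptides that suit class I. Psmb9, the gene of its subunit beta-1i, had 10.88 and 10.95 in WT against 10.62 and 10.68 in Flt3 KO. It fell by 0.27 (SE 0.050, limma adjusted p = 0.048), a 1.20-fold difference. Its call was lost with all probe sets tested together, without the intensity trend and with the replicate block. The other 4 genes of the group had differences between −0.084 and −0.055, and none had an unadjusted p under 0.05 in limma. They were Psmb8 (−0.084, SE 0.077), Psmb10 (−0.055, SE 0.068) and the genes of the PA28 activator, Psme1 (−0.057, SE 0.051) and Psme2 (−0.063, SE 0.065). Psmb8, Psmb10 and Psme2 overlapped between genotypes, and their signs turned without WT replicate 2, that of Psmb10 also without Flt3 KO replicate 1. Psmb9 and Tap1 are divergent neighbours on chromosome 17, and both were lower in each Flt3 KO array than in either WT array.

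Nlrc5, the class I transactivator, was read by 19 probe sets, the only member with more than 1. The brightest of them represented the gene in the test. It had 10.84 in both WT replicates and 10.61 in both Flt3 KO replicates. It fell by 0.23 (SE 0.044, limma adjusted p = 0.049, 1.17-fold), a small difference that was far wider than the replicate gaps. Of the 19 probe sets 18 had a negative difference, and in 16 both Flt3 KO values lay below both WT values. Such a gap held for 25.3% of all genes and for 37.0% of those above the median level of 5.89. Of the latter 60.5% had a negative difference, and all 19 probe sets lay above that level. The differences ran from −0.44 to 0.049, with a median of −0.26. The positive one came from the probe set next in brightness to the represented one (mean 10.58 against 10.73). Both of its Flt3 KO values lay above both WT values. Probe sets of a gene share the same RNA samples and are not replicates. When all probe sets of the array were tested together, 0 of the 19 passed an adjusted p of 0.05, and the represented one had 0.097 with an unadjusted p of 0.0021 in limma. The gene's call was also lost under quantile normalization, with 16 added to each intensity, with probe sets averaged, with no trend in the variance and with the replicate block.

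Mr1 and Cd1d1 are class I-like genes on other chromosomes, and neither passed. Mr1, which presents microbial vitamin B metabolites to mucosal-associated invariant T cells, had 6.78 and 6.56 in WT against 6.36 and 6.13 in Flt3 KO. Its difference of −0.43 (SE 0.11, limma adjusted p = 0.12) was large beside those of most members, but the replicates of each genotype also lay over 0.2 apart. Cd1d1, which presents lipids to natural killer T cells, had 6.59 and 6.63 in WT against 6.46 and 6.39 in Flt3 KO, a difference of −0.19 (SE 0.081, limma adjusted p = 0.29). Both genes were lower in each Flt3 KO array.

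Several heavy chain genes outside the 33 were read through probe sets annotated to more than 1 gene, which cannot be assigned to any of them. The probe set of H2-Q6 and H2-Q8 had 11.51 and 11.43 in WT against 10.92 and 10.71 in Flt3 KO and fell by 0.65 (SE 0.077, limma adjusted p = 0.027 over all 30177 probe sets). That of H2-T9, H2-T22 and H2-T10 had −0.37 (limma adjusted p = 0.091), that of H2-T23 and H2-T-ps −0.20 (0.21), and the pair shared by H2-K1 and H2-D1 −0.15 each (0.23 and 0.38). Others were near 0, with 0.031 for the probe set of H2-T3 and H2-T18 (0.92) and −0.026 for that of H2-Q1 and H2-Bl (0.95).

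Position along the chromosome was then examined, because 24 of the 33 genes lie on chromosome 17 in the MHC. The interval from Tapbp to H2-M2 held 164 measured genes in RefSeq's gene order, and 9 of them passed the test, 1 higher and 8 lower. Class I presentation genes supplied 4 of the 9: Psmb9, H2-Q4, H2-Q5 and H2-T10. Of the 140 other genes in the interval 5 passed, or 3.57%, against 2.39% of all genes, and their median difference was 0.0046. The lower ones were H2-Oa (fell by 0.46) and H2-Eb2 (fell by 0.83), which encode class II chains, the lymphotoxin gene Ltb (fell by 0.77) and the phosphatase inhibitor gene Ppp1r11 (fell by 0.29). The early response gene Ier3 rose by 0.69. Ppp1r11 lay at the threshold, and its call was lost under quantile normalization (limma adjusted p = 0.063), with all probe sets tested together (0.099), with no trend (0.16) and with the replicate block (0.087). H2-Eb2 and Ier3 lost theirs with all probe sets together (0.058 and 0.062) and with no trend (0.071 and 0.062), and H2-Oa with no trend (0.098). In the segment from Tapbp to Tap2, which holds Psmb9, 17 of the 22 measured genes had a negative difference. So did 11 of the 16 that are not members, with a median of −0.016. A negative difference was found for 50.3% of all genes and for 60.5% of those above the median level. All 4 measured genes from H2-Q2 to H2-Q10 were negative, all of them members. H2-Q2 (−0.034) and H2-Q10 (−0.063) were near 0, and their signs turned when single arrays were left out. Within segments, called members stood beside members that did not pass: H2-Q4 and H2-Q5 followed directly on H2-Q2, and H2-T10 lay 3 measured genes beyond H2-T24.

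**Figure D3:**
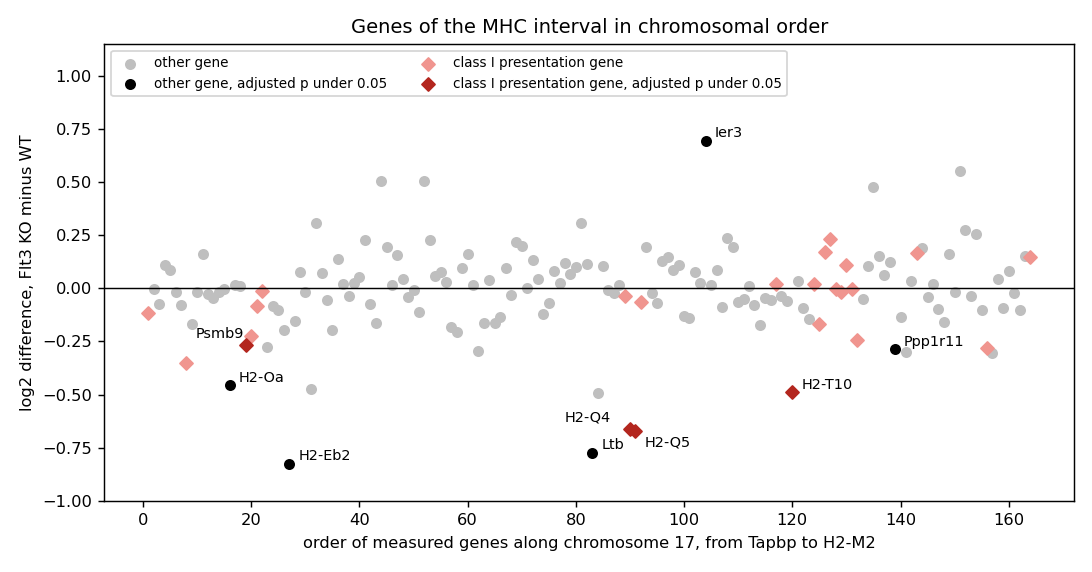
Log2 difference, Flt3 KO minus WT, of the 164 measured genes between Tapbp and H2-M2 in their order along chromosome 17; diamonds are class I presentation genes and circles are other genes, and the 9 genes past the threshold are named. H2-Q4, H2-Q5, H2-T10 and Psmb9 lie below 0. From Tapbp to Tap2 17 of the 22 genes are negative, where 60.5% of all genes above the median level are. All 4 from H2-Q2 to H2-Q10 are negative, with H2-Q2 and H2-Q10 near 0.

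Other genes of the pathway were taken from lists that the rule did not use. For comparison, 2.39% of all genes passed and 17.1% had an unadjusted p under 0.05 in limma. Whether any list differed from these shares was not tested. Of 18 measured genes of peptide supply and loading in the endoplasmic reticulum none passed, and 1 had an unadjusted p under 0.05 in limma: Blmh, a cytosolic peptidase gene, at −0.28 (SE 0.067, limma adjusted p = 0.098). The signal peptide peptidase gene H13 was next, at −0.11. The median of this list was −0.038. Among 14 measured transcription factors of class I promoters none passed and 3 had an unadjusted p under 0.05. Rfx5, a subunit of the complex that binds the X box, had 7.08 and 6.99 in WT against 6.76 and 6.60 in Flt3 KO, a difference of −0.36 (SE 0.088, limma adjusted p = 0.10). Ciita, the class II transactivator gene, had −0.20 (limma adjusted p = 0.23). Creb1, whose product binds cAMP response elements, went the other way, at 0.17 (limma adjusted p = 0.23), and the list's median was −0.029.

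In the list of traffic, turnover and cross-presentation 1 of 11 genes rose and none fell. This was Rab27a, a GTPase of secretory vesicle traffic, with 7.96 and 7.99 in WT against 8.38 and 8.50 in Flt3 KO (0.47, SE 0.069, limma adjusted p = 0.020). With no trend in the variance its adjusted p was 0.078. The median of the list was 0.018. None of 8 measured genes with a class I fold outside the rule passed, and 2 had an unadjusted p under 0.05 in limma, Procr (−0.29) and Mill2 (−0.32). Without Flt3 KO replicate 2 these were −0.19 and −0.20. Among 8 receptors for class I molecules Cd8b1, a chain of the CD8 co-receptor, fell by 0.26 (SE 0.048, limma adjusted p = 0.042) and the other 7 did not pass. Its call was lost with all probe sets tested together (adjusted p = 0.087), with no trend in the variance (0.19) and with the replicate block (0.068). In this list 4 genes had an unadjusted p under 0.05 in limma, Cd8b1 and Cd8a (−0.13) on the lower side and the inhibitory receptor gene Pirb (0.27) and Klrd1 (0.21) on the higher side.

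limma borrows its error from the other genes to make these calls. For a single gene, 2 arrays a genotype allow an exact permutation p no lower than 0.3333 (two-sided). Without WT replicate 1 or WT replicate 2 no gene passed, and 11 and 10 members then had an unadjusted p under 0.05 in limma. Without Flt3 KO replicate 1, H2-Q5 alone of the members passed. Flt3 KO replicate 2 had the most monocyte and macrophage marker signal. Leaving it out left 1 Flt3 KO array, and nearly all calls over all genes were then lost. The differences without it were −0.61 for H2-Q4, −0.64 for H2-Q5, −0.46 for H2-T10, −0.30 for Psmb9 and −0.24 for Nlrc5. The part of the marker signal in these values was not tested. Among all genes, the split of 215 higher and 261 lower calls became 217 and 452 after centring and 293 and 259 under quantile normalization. Centring moved the median of all genes to −0.039.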

How the data were processed

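Gene expression was measured in 4 pDC samples, 2 WT and 2 Flt3 KO. The deposited table gives the authors' processed intensity of 30177 probe sets per array on a linear scale, made by steps not given in the sources used here. From the platform annotation, probe sets took their names: 21789 had 1 symbol, 1621 several and 6767 none. For each of 19938 genes the single-symbol probe set with the highest mean was kept. Intensities were taken to log2 with no constant and no filter. The test was limma 3.58.1 under R 4.3.3 (lmFit, eBayes with an intensity trend, no covariate), with Benjamini-Hochberg adjustment over all genes and a threshold of 0.05. The code was tested on simulated data. Precision is limited by the number of arrays.

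Named genes were Flt3, members with an unadjusted p under 0.05 and a fixed set of members, genes of each pathway list past the threshold or otherwise the 2 with the lowest p, and called genes of the chromosome 17 interval; H2-Q2, H2-Q10, H2-T24, H2-M2, H2-M10.2, Creb1, Cd8a, Pirb, Klrd1, shared probe sets and the cell markers were added with their values known. Lists were matched to the RefSeq gene table of GRCm38.p6, used for names, chromosomes and gene order only. Members and lists were chosen with earlier results of these data known, and the motif letters after the data were seen. Alternatives varied the scaling, added constant, dim filter, probe set rule, variance model, replicate block and arrays included.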

Additional observations from a re-analysis of the deposited data

How the results depend on the processing

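All 5 calls kept their direction in every alternative run, and H2-Q4 and H2-Q5 passed in each one that kept all arrays. With all probe sets tested together 219 genes, 3 of the 33 class I presentation genes and 5 genes of the chromosome 17 interval passed, and without the intensity trend 108, 2 and 3. With the replicate number as a block 3 of the 33 genes passed (H2-Q4, H2-Q5 and H2-T10). The deviations of same-numbered samples correlated at −0.017 across genes, and nothing in the labels pairs them. Leaving out single arrays gave 0 to 54 genes in all, 0 to 1 of the 33 and 0 to 1 of the interval, where 2068 to 2689 genes had an unadjusted p under 0.05 in limma. The median difference of the 33 genes was −0.12 after centring of the arrays and −0.067 under quantile normalization. It ran from −0.13 to −0.047 without single arrays. The sign turned for H2-T24 after centring (−0.016) and for Tap2 under quantile normalization (0.025). Without single arrays it turned for Tap2 (range −0.13 to 0.10), H2-Q2 (−0.11 to 0.041), H2-Q10 (−0.22 to 0.097), H2-T24 (−0.0061 to 0.051), Psmb8 (−0.20 to 0.030), Psmb10 (−0.12 to 0.014) and Psme2 (−0.15 to 0.027). Apart from the fewer arrays, the causes were not tested. Detection calls were not used here, so the limit of detection of the dim H2-M genes is unknown.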
